A study of Homo sapiens with 4 samples.

Results

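Cadherins and protocadherins are calcium-dependent adhesion proteins of the cell surface, and 96 of the 19951 protein-coding genes in the annotation belonged to the family as defined here. A gene was a member when its symbol was CDH followed by a number, began with PCDH, or was DSC or DSG followed by a digit. The listed members were chosen by the authors' own calls of differential expression after treatment, that is, by whether a gene stood under any term of the Gene Ontology (GO) table of a cell line. The members comprised 23 CDH genes, 7 desmosomal cadherins, 53 clustered protocadherins and 13 non-clustered protocadherins.

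The cells were the human hepatocellular carcinoma lines HepG2 and Huh7. Group A was HepG2 before treatment and group B was HepG2 after it. Group C was Huh7 before treatment and group D was Huh7 after it. Treatment was sonodynamic therapy: targeted nanobubbles filled with perfluoropropane gas carried the sonosensitizer hematoporphyrin monomethyl ether (HMME) and lonidamine (LND), a drug that acts on mitochondrial and lactate metabolism, and the cells were exposed to low-frequency ultrasound. Each group was 1 RNA-seq library, so no call below has a replicate check. The files used gave which genes were called, not the level of any gene nor whether it rose or fell, so "listed" means called in that comparison and nothing about direction. The depth of the libraries is unknown from these files, and a call may rest on a very low level of the gene.

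Classical cadherins hold neighbouring cells together by binding the same cadherin on the next cell, and their tails reach actin through the catenins. Desmosomal cadherins do the same for intermediate filaments in epithelia. Clustered protocadherins, best known from neurons, are switched on from individual promoters within gene arrays, so that each cell carries its own combination. In liver, E-cadherin joins hepatocytes to each other and N-cadherin is also present at their contacts.

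Of the 96 members, 37 (38.5%) were listed in HepG2, where 23.9% of all protein-coding genes were listed. In Huh7 41 members (42.7%) were listed, against 21.9% of all protein-coding genes. Both lists held 18 members (18.8%), against 11.4% of all protein-coding genes. Members were defined by symbol and listed by the authors' calls. They were chosen with earlier results of these data known, so these shares are given as a description. A further 19 members were listed in HepG2 alone and 23 in Huh7 alone, so 60 (62.5%) were listed at least once, against 34.3% of all protein-coding genes. The 18 shared members made up 48.6% of the HepG2 members and 43.9% of the Huh7 members. For all protein-coding genes the shared genes were 47.7% of the HepG2 list and 52.2% of the Huh7 list. The remaining 36 members were in neither list. For these, not being called and having no GO annotation cannot be told apart. A member listed in 1 cell line has a GO annotation, so its absence from the other list means that it was not called there.

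**Figure D1:**
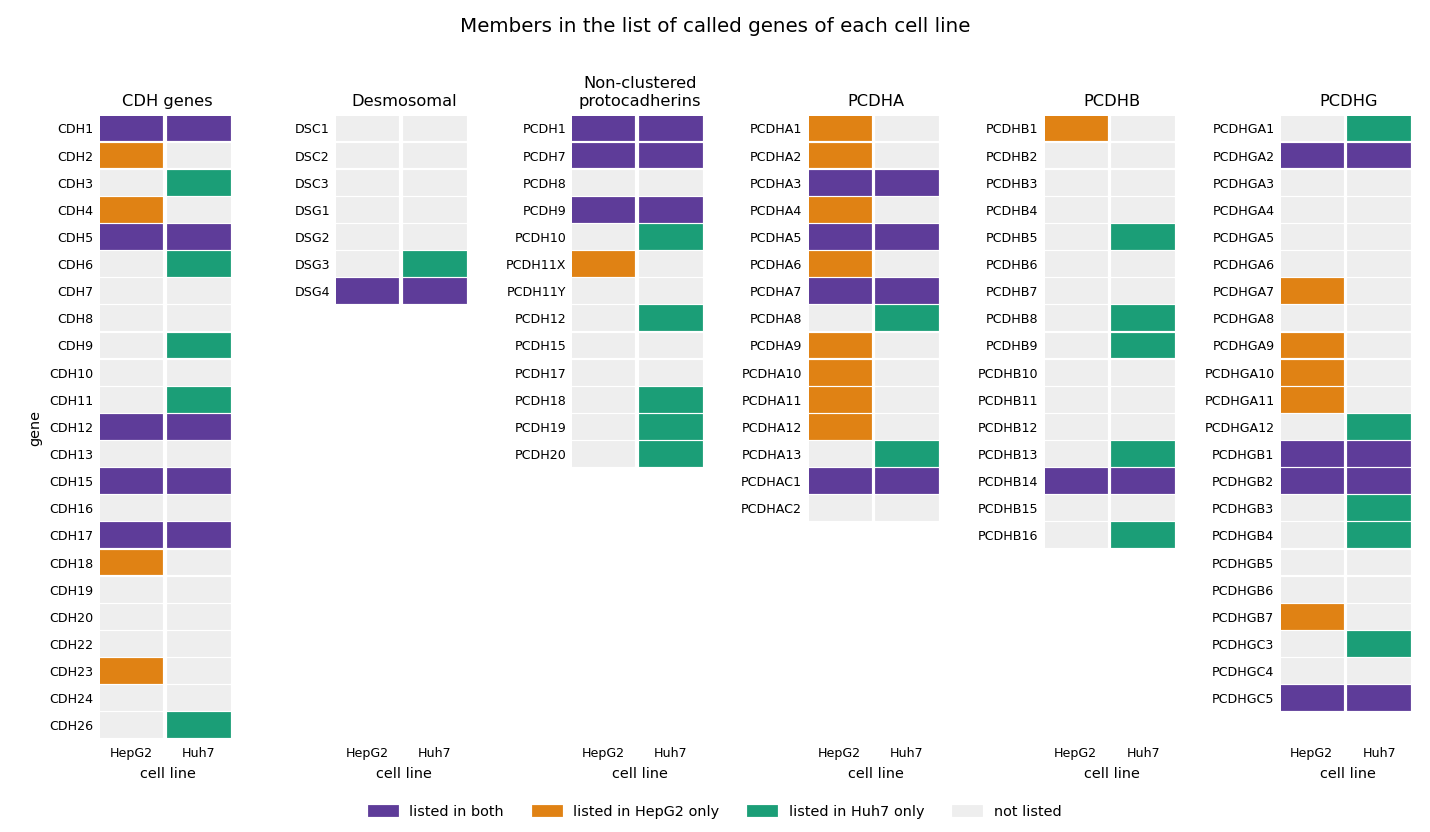
Each row is a member gene and each column a cell line. Coloured cells mark listing in both cell lines (18 members), in HepG2 only (19) or in Huh7 only (23), and pale cells mark a gene not listed in that comparison.

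The subfamilies are set here beside the 23.9% of all protein-coding genes listed in HepG2 and the 21.9% listed in Huh7. Of the 6 groups CDH, desmosomal, non-clustered, alpha, beta and gamma, the alpha protocadherins had the highest share in HepG2, with 12 of 15 genes (80.0%), against 6 of 15 (40.0%) in Huh7. Beta protocadherins went the other way, with 2 of 16 (12.5%) in HepG2 and 6 of 16 (37.5%) in Huh7. Gamma protocadherins were listed equally often, 9 of 22 (40.9%) in each line. Non-clustered protocadherins had 4 of 13 (30.8%) in HepG2 and 8 of 13 (61.5%) in Huh7. The CDH genes had 9 of 23 (39.1%) and 10 of 23 (43.5%). The desmosomal cadherins had 1 of 7 (14.3%) and 2 of 7 (28.6%). Beta and desmosomal genes were thus below the share of all protein-coding genes in HepG2, and non-clustered genes in HepG2 and desmosomal genes in Huh7 were near it. The difference between cell lines was not tested for any subfamily. Each alpha gene overlaps exonic bases of all 14 others, so how far the alpha calls belong to single genes is uncertain. With the alpha and gamma arrays as 1 unit each, 4 of 18 clustered units (22.2%) were listed in HepG2.

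**Figure D2:**
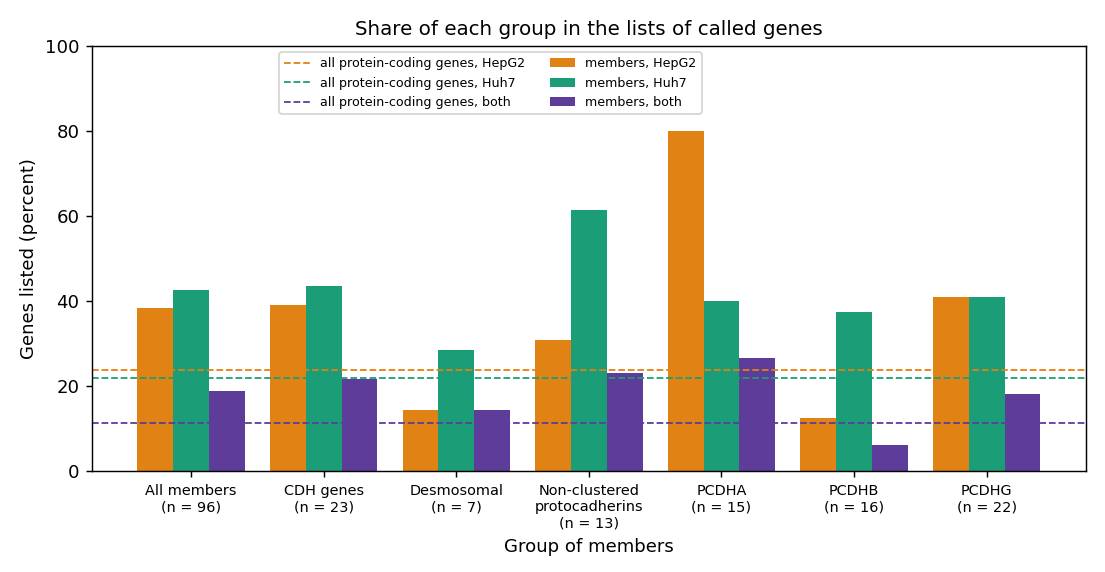
Bars give the percent of genes listed in HepG2, in Huh7 and in both for all members and for each group, with the number of genes below each. Dashed lines give the same for all protein-coding genes (23.9%, 21.9% and 11.4%); the tallest bar is PCDHA in HepG2 at 80.0%.

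Type I classical cadherins, which form the adherens junctions of most solid tissues, were all listed at least once, 5 of 5, where 34.3% of all protein-coding genes were. CDH1, the E-cadherin of epithelia, was listed in both cell lines. CDH15, the M-cadherin of muscle, was also listed in both. CDH2, the N-cadherin of neural and mesenchymal cells, was listed in HepG2 only, as was CDH4, the R-cadherin of retina. CDH3, the P-cadherin of placenta and basal epithelia, was listed in Huh7 only. In all, 4 of the 5 type I genes were listed in HepG2 and 3 of the 5 in Huh7, against 23.9% and 21.9% of all protein-coding genes.

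Of the 13 type II cadherins, 3 (23.1%) were listed in HepG2, 5 (38.5%) in Huh7 and 2 (15.4%) in both, against 23.9%, 21.9% and 11.4% of all protein-coding genes. CDH5, the VE-cadherin of endothelium, and CDH12, a brain cadherin, were listed in both. CDH18, also expressed in brain, was listed in HepG2 only. CDH6, the K-cadherin of fetal kidney, CDH9 and CDH11, the cadherin of osteoblasts and mesenchyme, were listed in Huh7 only. CDH7, CDH8, CDH10, CDH19, CDH20, CDH22 and CDH24 were in neither list.

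Among the 5 other CDH genes, CDH17, the LI-cadherin of intestine, was listed in both. CDH23, a component of the tip links of hair cells, was listed in HepG2 only, and CDH26 in Huh7 only. CDH13, which is anchored by a lipid and lacks a cytoplasmic tail, and the kidney cadherin CDH16 were in neither list. Of the 23 CDH genes, 14 (60.9%) were listed at least once and 9 were in neither list, against 34.3% of all protein-coding genes listed at least once.

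In the desmosomal group 5 of the 7 genes, DSC1, DSC2, DSC3, DSG1 and DSG2, were in neither list. DSG4, a desmoglein of hair follicles, was listed in both cell lines. DSG3, the desmoglein that is the target of autoantibodies in pemphigus vulgaris, was listed in Huh7 only. All 7 lie side by side on chromosome 18, and the 11 members of that chromosome had 3 genes (27.3%) listed at least once, against 34.3% of all protein-coding genes.

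Among the non-clustered protocadherins PCDH1, PCDH7 and PCDH9 were listed in both cell lines. PCDH11X, the X-linked copy of a gene pair shared by the X and Y chromosomes, was listed in HepG2 only. PCDH10, PCDH12, PCDH18, PCDH19 and PCDH20 were listed in Huh7 only. PCDH12 is a protocadherin of endothelium and trophoblast, and mutations of PCDH19 cause an epilepsy. PCDH8, PCDH11Y, PCDH15 and PCDH17 were in neither list. Grouped by the usual division of this subfamily, which was applied after the lists had been seen, 4 of 5 delta1 genes (PCDH1, PCDH7, PCDH9 and PCDH11X, but not PCDH11Y) were listed in HepG2 and 3 of 5 in Huh7. None of the 5 delta2 genes (PCDH8, PCDH10, PCDH17, PCDH18 and PCDH19) was listed in HepG2, and 3 of the 5 were listed in Huh7, as many as of the delta1 genes; the shares of all protein-coding genes were 23.9% and 21.9%. PCDH20 shared 95.8% of its exonic bases with an overlapping gene model, AL592490.1, which GENCODE links to the same RefSeq gene.

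Members were unevenly spread over the chromosomes. Chromosome 5 held 60 of the 96, and 26 of these were listed in HepG2, 26 in Huh7 and 11 in both (43.3%, 43.3% and 18.3%, against 23.9%, 21.9% and 11.4% of all protein-coding genes). Chromosome 16 held 8 CDH genes, of which CDH1, CDH5 and CDH15 were listed in both cell lines and CDH3 and CDH11 in Huh7 only. The 3 protocadherins of chromosome 4, PCDH7, PCDH10 and PCDH18, were all listed in Huh7, and PCDH7 was also listed in HepG2.

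The clustered protocadherins lie in 3 arrays on chromosome 5. In the alpha and gamma arrays each gene has its own promoter and first exon, which is spliced to constant exons used by the whole array, whereas beta genes stand alone. The promoters of these genes are shown here because each gene of the arrays has its own. RefSeq promoter entries of 300 bases, 250 before to 50 after the gene start (build GRCh38.p14), matched 76 of the 96 members and 47 of the 53 clustered genes. The motif CGCT, the core of the conserved element of clustered protocadherin promoters, was in 46 of the 47 (97.9%) on either strand, and in 70.0% of all 35116 promoters. In the other 29 members it was in 27 (93.1%). CAGGTG, an E-box that SNAI and ZEB repressors bind, was in 4 of the 47 (8.51%), in 6 of the other 29 (20.7%) and in 20.6% of all promoters. CDH1, the E-cadherin gene, had no promoter entry and was not among the 29. Neither motif can overlap the other.

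A longer word was then looked for in each array, after the lists had been seen: the 8-base word found in most promoters of the array, and of tied words the one rarest in all promoters. The word was ATGTCGCT in the alpha array (9 of 13 promoters; 0.234% of all promoters on either strand), GTGGCGCT in the beta array (13 of 14; 1.15%) and GCCGCTGT in the gamma array (11 of 20; 1.63%). Each word holds CGCT, so it overlaps that motif. None of the promoters of one array held the word of another. Because each word was picked for being frequent, its count in its own array is a description.

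Promoters of the clustered genes listed in both cell lines are given below, for up to 2 genes of each array by symbol order among those with an entry, with the word of the array in capitals. They run 5′ to 3′ and come from RefSeq (GRCh38.p14).
PCDHA5 (chr5:140821363-140821662, plus strand): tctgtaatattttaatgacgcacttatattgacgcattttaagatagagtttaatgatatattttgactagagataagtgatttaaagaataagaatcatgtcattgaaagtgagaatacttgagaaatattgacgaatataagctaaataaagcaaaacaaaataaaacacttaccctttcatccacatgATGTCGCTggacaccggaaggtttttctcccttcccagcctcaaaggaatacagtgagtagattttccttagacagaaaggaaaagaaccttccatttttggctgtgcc
PCDHA7 (chr5:140834019-140834318, plus strand): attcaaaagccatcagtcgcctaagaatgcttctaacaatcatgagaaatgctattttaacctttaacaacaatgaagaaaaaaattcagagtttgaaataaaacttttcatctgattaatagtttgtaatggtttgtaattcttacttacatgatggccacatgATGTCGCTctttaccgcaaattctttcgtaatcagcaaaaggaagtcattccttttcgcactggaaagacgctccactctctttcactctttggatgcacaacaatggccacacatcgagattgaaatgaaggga
PCDHB14 (chr5:141223093-141223392, plus strand): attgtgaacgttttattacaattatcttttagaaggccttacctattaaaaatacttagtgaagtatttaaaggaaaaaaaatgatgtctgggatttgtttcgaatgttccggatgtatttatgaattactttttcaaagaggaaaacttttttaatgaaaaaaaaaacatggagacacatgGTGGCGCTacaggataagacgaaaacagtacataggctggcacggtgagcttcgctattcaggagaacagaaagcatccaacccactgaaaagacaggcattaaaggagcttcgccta
PCDHGA2 (chr5:141338510-141338809, plus strand): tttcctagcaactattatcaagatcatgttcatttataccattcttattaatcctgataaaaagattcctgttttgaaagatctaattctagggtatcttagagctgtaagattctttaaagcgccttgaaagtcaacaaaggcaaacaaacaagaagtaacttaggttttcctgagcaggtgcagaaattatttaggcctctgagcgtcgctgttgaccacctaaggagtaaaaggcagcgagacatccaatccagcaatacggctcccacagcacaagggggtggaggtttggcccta
PCDHGB1 (chr5:141349849-141350148, plus strand): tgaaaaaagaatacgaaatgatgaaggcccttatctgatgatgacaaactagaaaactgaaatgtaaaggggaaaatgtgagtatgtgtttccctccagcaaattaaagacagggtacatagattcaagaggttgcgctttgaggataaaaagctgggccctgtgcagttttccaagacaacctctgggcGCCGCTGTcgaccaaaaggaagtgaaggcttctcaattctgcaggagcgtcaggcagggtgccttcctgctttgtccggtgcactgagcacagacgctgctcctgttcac
Every one of the 5 holds CGCT. CpG dinucleotides numbered 5 in PCDHA5, 7 in PCDHA7, 8 in PCDHB14, 5 in PCDHGA2 and 8 in PCDHGB1. PCDHGA2 lacks the word of its array and has CAGGTG, which the other 4 lack.

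The 9 alpha promoters with ATGTCGCT are set side by side here with the 8 bases on each side, to show how far the likeness runs beyond the word.
PCDHA1: gccacatgATGTCGCTgtacacca
PCDHA2: gccacatgATGTCGCTgtccacca
PCDHA4: gccacatgATGTCGCTctttacca
PCDHA5: tccacatgATGTCGCTggacaccg
PCDHA6: gccgcatgATGTCGCTgtctacca
PCDHA7: gccacatgATGTCGCTctttaccg
PCDHA8: gccacatgATGTCGCTgtctacca
PCDHA10: gccaccggATGTCGCTgtcgtcca
PCDHA12: gtcacatgATGTCGCTctacactc
All 9 of these genes were listed at least once: 2 in both cell lines, 6 in HepG2 only and 1 in Huh7 only. In the whole alpha array 14 of 15 genes (93.3%) were, against 34.3% of all protein-coding genes. The alpha promoters without the word were those of PCDHA9, PCDHA11, PCDHAC1 and PCDHAC2, and the first 3 of these genes were also listed at least once.

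The 13 beta promoters with GTGGCGCT are shown in the same way.
PCDHB2: gacgcgggGTGGCGCTgcagcctt
PCDHB3: aacgcatgGTGGCGCTgttgacta
PCDHB4: gacgcaggGTGGCGCTgcaggcta
PCDHB5: gacgcctgGTGGCGCTgcaggcta
PCDHB7: aacgcaagGTGGCGCTgctggcta
PCDHB8: gacccgtgGTGGCGCTgcaggata
PCDHB9: gccacaagGTGGCGCTgcagactg
PCDHB10: gccacacgGTGGCGCTgcaggcta
PCDHB12: gacgcgtgGTGGCGCTgcaggata
PCDHB13: gacgcgtgGTGGCGCTgcaggata
PCDHB14: gacacatgGTGGCGCTacaggata
PCDHB15: aacgcatgGTGGCGCTgcaggcta
PCDHB16: aacgcgtgGTGGCGCTgcaggtta
Of these 13 genes 6 were listed at least once and 7 were in neither list. PCDHB1 was the 1 beta promoter without it, and it was the 1 beta gene listed in HepG2 only. In the gamma array 7 of the 11 genes with the word were listed at least once, as were 14 of all 22 (63.6%). Over all protein-coding genes the share was 34.3%. The word began 42 to 85 bases before the gene start in alpha promoters, 1 to 83 in beta promoters and 42 to 97 in gamma promoters. The medians were 52, 65 and 67 bases.

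**Figure D3:**
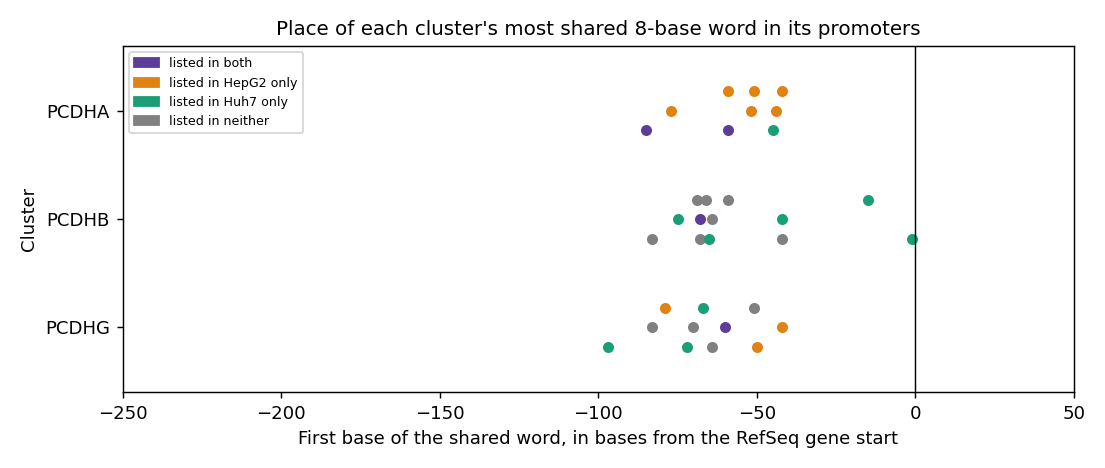
Each point is a promoter, placed by the distance in bases from the RefSeq gene start to the first base of the word most shared in its array, and coloured by listing. The points of the 3 arrays lie within 97 bases before the start, with medians of 52 (PCDHA), 65 (PCDHB) and 67 (PCDHG) bases.

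CpG counts were low in these promoters. The median was 7 in the 47 clustered promoters, from 2 to 27, against 11 in the other 29 members and 14 in all promoters. PCDHAC1 had 27 and PCDHAC2 15, the highest of the alpha array.

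In the alpha array PCDHA3, PCDHA5, PCDHA7 and PCDHAC1 were listed in both cell lines. PCDHA1, PCDHA2, PCDHA4, PCDHA6, PCDHA9, PCDHA10, PCDHA11 and PCDHA12 were listed in HepG2 only. PCDHA8 and PCDHA13 were listed in Huh7 only, and PCDHAC2 alone was in neither list. The 13 alpha genes other than the C type were all listed at least once, against 34.3% of all protein-coding genes, and shared a median of 46.7% of their exonic bases with another gene. In HepG2 the listed genes took places 1 to 7, 9 to 12 and 14 of the array. Of the 3 places not listed in HepG2, 8 and 13 were listed in Huh7 and 15 was not.

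In the beta array PCDHB14 was listed in both cell lines and PCDHB1, the first gene of the array, in HepG2 only. PCDHB5, PCDHB8, PCDHB9, PCDHB13 and PCDHB16 were listed in Huh7 only. PCDHB8, PCDHB16 and PCDHB9 are neighbours, at places 8 to 10. The remaining 9 beta genes (PCDHB2, PCDHB3, PCDHB4, PCDHB6, PCDHB7, PCDHB10, PCDHB11, PCDHB12 and PCDHB15) were in neither list. Thus 7 of the 16 beta genes (43.8%) were listed at least once, against 34.3% of all protein-coding genes.

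In the gamma array PCDHGA2, PCDHGB1, PCDHGB2 and PCDHGC5 were listed in both cell lines. PCDHGA7, PCDHGA9, PCDHGA10, PCDHGA11 and PCDHGB7 were listed in HepG2 only, all between places 10 and 18 of the 22. PCDHGA1, PCDHGB3, PCDHGB4, PCDHGA12 and PCDHGC3 were listed in Huh7 only, at places 1, 8, 11, 19 and 20 in that order. PCDHGA3, PCDHGA4, PCDHGA5, PCDHGA6, PCDHGA8, PCDHGB5, PCDHGB6 and PCDHGC4 were in neither list. Of the 5 C-type genes of the alpha and gamma arrays, whose promoters are used differently from the rest, 2 were listed in HepG2 and 3 in Huh7, against 23.9% and 21.9% of all protein-coding genes.

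**Figure D4:**
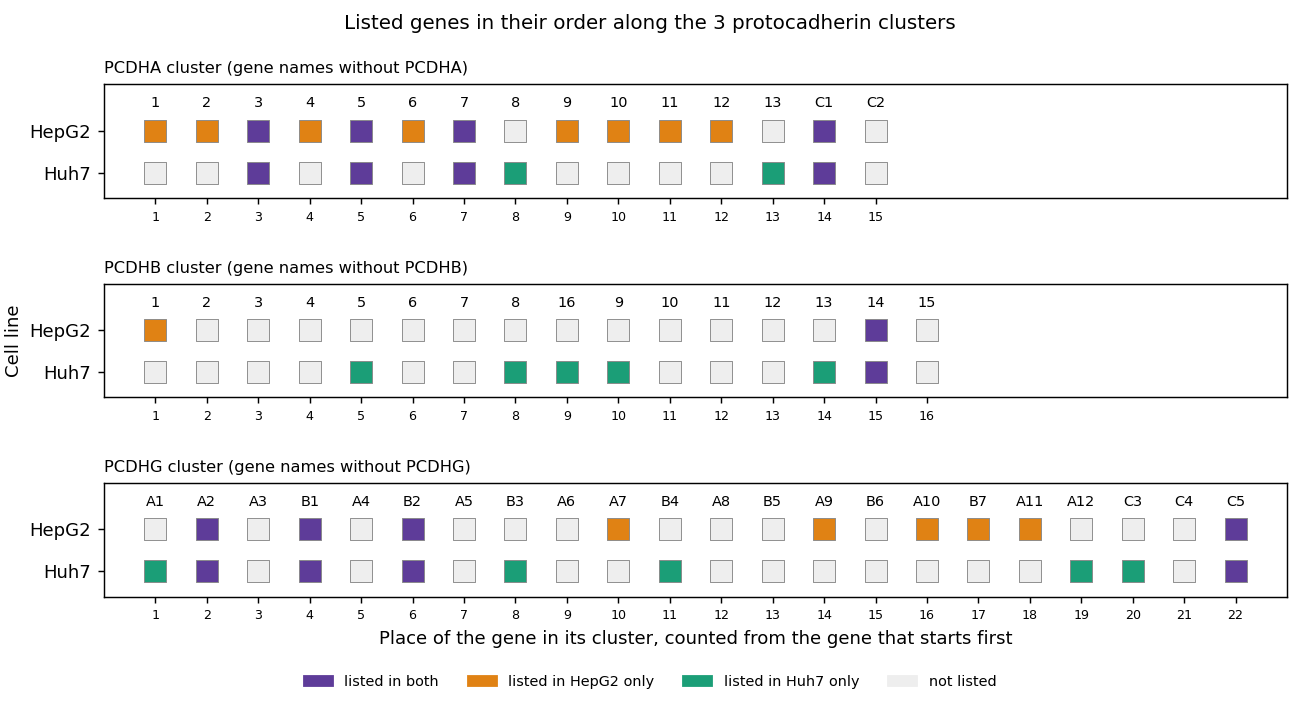
Genes of the 3 arrays are drawn in their order along the chromosome, numbered from the gene that starts first, with 1 row for each cell line. HepG2 calls fill places 1 to 7, 9 to 12 and 14 of PCDHA, whereas in PCDHB HepG2 calls are at places 1 and 15 only.

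Genes of an array share sequence, which bears on how far a call belongs to 1 gene. In the annotation 39 of the 53 clustered genes overlapped exonic bases of another protein-coding gene: 15 alpha, 22 gamma and 2 beta genes. Outside the arrays CDH23, PCDH12 and PCDH20 each overlapped 1 neighbour. Each alpha gene overlapped all 14 others and each gamma gene all 21 others. The median share of exonic bases so overlapped was 46.5% in alpha and 43.9% in gamma genes. Stretches of 75 bases were also taken from every transcript, a length chosen after the lists had been seen because the read length is not given in the sources used here. A median of 53.5% of the stretches of an alpha gene occurred in no transcript of another gene. The median was 56.6% for gamma genes, 88.2% for beta genes and 100% for CDH, desmosomal and non-clustered members.

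The least distinct clustered gene was PCDHGB4 at 30.7%, followed by PCDHA7 and PCDHA8 at 40.6% each. PCDHA4, at 78.5%, and PCDHB1, at 100%, were the most distinct of their arrays. Outside the arrays PCDH20 had 4.25%, PCDH11X 57.3% and its Y-linked partner PCDH11Y 56.9%. How the authors' counting split reads that fit several of these genes is not given in the sources used here, so calls of single alpha and gamma genes, of the less distinct beta genes such as PCDHB8 (61.2%), and of PCDH11X, PCDH11Y and PCDH20 are uncertain in that respect.

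**Figure D5:**
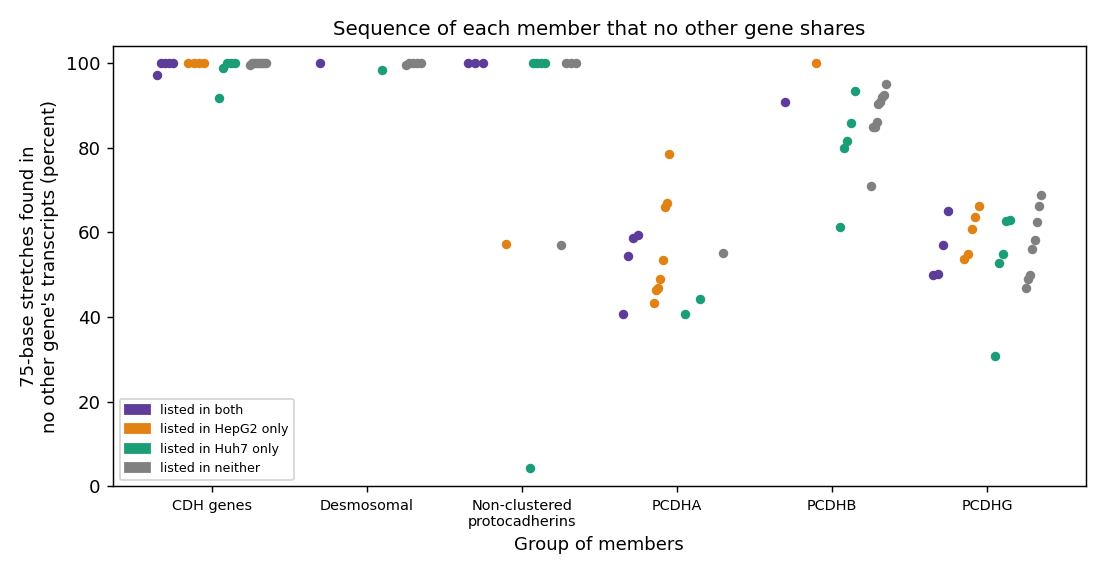
Each point is a member, placed by the percent of its 75-base stretches that occur in no other gene's transcripts and coloured by listing. PCDHA and PCDHG genes lie between 30.7% and 78.5%, PCDHB genes between 61.2% and 100%, and PCDH20 at 4.25%.

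Counted without every gene that overlaps another, 14 of 54 members (25.9%) were listed in HepG2, 23 (42.6%) in Huh7 and 9 (16.7%) in both. The share in HepG2 was then near the 23.9% of all protein-coding genes, where it had been 38.5% with every member counted; the shares of all protein-coding genes in Huh7 and in both were 21.9% and 11.4%. With the alpha array as 1 unit and the gamma array as 1 unit, the counts were 18 (29.5%), 28 (45.9%) and 12 (19.7%) of 61. In the clustered group this leaves out every alpha and gamma gene and also PCDHB14 and PCDHB15, so the 14 genes left are all beta genes. Of these 14, 1 was listed in HepG2 (7.14%), below the share of all protein-coding genes. In Huh7 5 of the 14 were listed (35.7%), with 0 in both.

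The longest annotated transcript had a median of 4909 bases in the 60 members listed at least once and 4612.5 bases in the 36 listed in neither. The median over all protein-coding genes was 3153 bases. Among protein-coding genes with a transcript of 3000 bases or more, 25.4% were listed in HepG2 and 22.9% in Huh7.

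In the GO tables every listed member was under homophilic cell adhesion, the binding of like to like that is typical of the family. That term held 168 background genes, of which 63 (37.5%) were listed in HepG2 and 65 (38.7%) in Huh7. Of the whole GO background, 21.6% of genes were listed in HepG2 and 19.7% in Huh7. Members made up 37 of the 63 and 41 of the 65. Under calcium-dependent cell-cell adhesion, members were 10 of 14 listed genes in HepG2 and 18 of 22 in Huh7, out of 49. Under catenin complex, the junctional complex that couples cadherins to actin, they were 8 of 9 and 10 of 13, out of 28. The 8 in HepG2 were CDH1, CDH2, CDH4, CDH5, CDH12, CDH15, CDH17 and CDH18, which is every listed CDH gene but CDH23. The 10 in Huh7 were all of its listed CDH genes. The members' share of the background genes of these adhesion terms was not counted. The part of members among listed genes follows largely from how the family is annotated. Under synapse assembly, 45 of 145 genes (31.0%) were listed in each cell line. Among these, 3 were members in HepG2 (CDH1, CDH2 and PCDHB14) and 7 in Huh7 (CDH1, CDH9, PCDHB5, PCDHB9, PCDHB13, PCDHB14 and PCDHB16).

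The pathway tables of KEGG, a collection of curated pathway maps, held few members. There were 5 in HepG2 (CDH1, CDH2, CDH4, CDH5 and CDH15) and 4 in Huh7 (CDH1, CDH3, CDH5 and CDH15), all of them under cell adhesion molecules. That pathway had 57 of 145 genes listed in HepG2 and 54 of 145 in Huh7, where 23.9% and 21.9% of all protein-coding genes were listed. CDH1 was in 11 pathways in each cell line, among them adherens junction (16 of 73 genes listed in HepG2, 11 in Huh7), Hippo signalling (46 and 44 of 154) and Rap1 signalling (65 and 67 of 211). CDH5 was also under leukocyte transendothelial migration (28 and 25 of 118). CDH2 was under arrhythmogenic right ventricular cardiomyopathy in HepG2 (29 of 74). In Huh7 28 of the 74 genes were listed there, none of them a member. No protocadherin and no desmosomal cadherin was in a KEGG pathway of either table.

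Partners of the members were counted in the same lists, which held 23.9% of all protein-coding genes in HepG2 and 21.9% in Huh7. Of 7 catenins, which link cadherin tails to actin or filaments, 1 was listed in HepG2 (CTNND1, p120-catenin) and 3 in Huh7 (CTNNA2, CTNNA3 and CTNND2). CTNNA1, CTNNB1 and JUP, the alpha-, beta- and gamma-catenins of epithelial junctions, were in neither list. Of 8 desmosomal plaque genes, PKP3 and PKP4 were listed in HepG2 and PKP2 and EVPL in Huh7. DSP, PKP1, PPL and PERP were in neither list. A list of 6 genes held linkers and the nectins, which belong to the second adhesion system of adherens junctions. Of these 6, NECTIN4 and VCL were listed in HepG2 and none in Huh7.

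Of 5 repressors that act on the E-cadherin promoter, SNAI1 was listed in both cell lines and ZEB2 in Huh7 only, while SNAI2, TWIST1 and ZEB1 were in neither list. None of 11 genes for factors of protocadherin promoter choice was listed in either cell line, among them CTCF, the cohesin genes RAD21, SMC1A and SMC3, and the silencing factors DNMT3B and SMCHD1. In the wider cadherin superfamily 9 of 17 genes were listed in HepG2, 7 in Huh7 and 3 in both. The 3 were FAT1, FAT4 and CDHR3. Beside all the counts of this paragraph stand the 23.9%, 21.9% and 11.4% of all protein-coding genes listed in HepG2, Huh7 and both.

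Markers of cell types were read from the same lists, which hold calls and not levels, so the identity of the lines could not be checked from them. Of 8 hepatocyte markers 2 were listed in HepG2 and 6 in Huh7, with ALB and AFP in both, where 23.9% and 21.9% of all protein-coding genes were listed. Of 4 endothelial markers 3 were listed in HepG2 and 2 in Huh7, with PECAM1 and VWF in both. Of 4 fibroblast markers 2 and 1 were listed, of 3 leukocyte markers 2 and 2, and of 3 neuron markers 1 and 1. Of the members described above by endothelium or brain, CDH5 and CDH12 were listed in both cell lines. PCDH12 was listed in Huh7 only and CDH18 in HepG2 only. Among the type II cadherins, to which CDH5, CDH12 and CDH18 belong, 7 were in neither list. The part of other cell types in the calls was not tested.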

How the data were processed

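RNA was taken from HepG2 and Huh7 cells before and after treatment, 1 ribosomal RNA-depleted, strand-specific library per group. Per the labels, the submitters' processing notes name Bowtie2 2.2.8, HISAT2, StringTie 1.3.1 and Cuffdiff 2.1.1. The authors called genes from FPKM values by an adjusted p-value; their methods name Cuffdiff for this, while their results text names another program. The 4 deposited tables, a GO and a KEGG table for each cell line, give gene counts per term with the authors' enrichment p-values, which were not used. The union of genes over all GO terms rebuilt the list of each cell line (4783 and 4369 genes, equal to the totals in the tables), and 15 and 9 of these were not protein-coding in GENCODE release 29 and were left out. Members, lists and sequence features were counted with Python 3.11.15 and plotted with matplotlib 3.10.9, after the counting steps were tested on simulated data, and no statistical test was made. The result for 1 planned list of related genes is not reported here. The members and lists were chosen with earlier results of these data known. The genome build and annotation behind the calls are not given in the sources used here. Every listed member is named, and promoters are shown for up to 2 genes of each array listed in both.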

Additional observations from a re-analysis of the deposited data

How the results depend on the processing

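Counts of listed members were recomputed with only 1 GO ontology (each of the 3), with the GO or KEGG table, and with RefSeq symbols and types (97 genes, since AL592490.1 is linked to PCDH20 there). The counts came out as in the report in each of these, for all members and for the CDH, desmosomal, clustered and non-clustered groups; smaller groups were not recounted. With the wider superfamily added, 46, 48 and 21 of 113 genes were listed in HepG2, Huh7 and both.

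From the KEGG tables alone, all members fell to 5, 4 and 3 in HepG2, Huh7 and both, and CDH genes to the same 5, 4 and 3, since no other member is in a listed pathway; desmosomal, clustered and non-clustered members were 0 in each. Without genes that overlap another, all members were 14, 23 and 9 and clustered members 1, 5 and 0; this leaves out every alpha and gamma gene and also PCDHB14, PCDHB15, CDH23, PCDH12 and PCDH20. With PCDHA and PCDHG as 1 unit each, all members were 18 in HepG2 and clustered members 4, 8 and 3. An alternative chosen after seeing the data left out genes with under 50% of their 75-base stretches to themselves: 31, 35 and 16 of 83 members were listed.

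The background shares were 21.6%, 19.7% and 10.3% over the authors' GO background of 22148 genes. No paired analysis was possible because the files used hold no value per sample. Without levels or depth, direction and size of change could not be assessed. The same holds for calls missed, and calls made, at low expression.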
